A study of Mus musculus with 8 samples.

Results

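Platelet-derived growth factor (Pdgf) signalling and the genes that mark pericytes were followed in embryonic mouse lung mesenchyme through 9 genes, Pdgfra, Pdgfrb, Pdgfa, Pdgfb, Pdgfc, Rgs5, Cspg4, Kcnj8 and Abcc9. They were taken as every probe set on the array whose platform annotation gives one of these symbols alone, which yielded 21 probe sets of 45101. All 9 genes and 19 of these probe sets passed a filter on dim signal, as did 16112 genes and 37394 probe sets in all. The 2 that failed belong to Rgs5 (1420942_s_at) and Abcc9 (1435752_s_at).

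The tissue was lung mesenchyme, which surrounds the epithelial branches, dissected from CD1 mouse embryos at e11.5 to e12.5, with 2 arrays in each of 4 groups. Tip (the mesenchyme at the growing branch ends) and stalk (that behind them) had RNA extracted straight after dissection. Other stalk tissue spent 12 h on tissue culture plastic in control growth medium, or in that medium with 400 ng/ml Wnt1, a secreted signalling protein. The labels name no mutation or transgene in any group, do not give how many embryos each array pooled, and there was no cultured tip. The RNA of every sample was amplified in a 2-cycle procedure.

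Pdgf ligands are secreted dimers that bind receptor tyrosine kinases. Pdgfra binds the A, B and C chains and, in the embryonic lung, is carried by mesenchymal cells that lie next to the Pdgfa-producing epithelium. Pdgfrb is carried by pericytes and other mural cells, the cells that wrap small vessels, and is bound by Pdgfb from the endothelium. Rgs5, Cspg4 (the NG2 proteoglycan) and the channel genes Kcnj8 and Abcc9 are widely used pericyte markers, though none belongs to pericytes alone.

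Promoter sequence is shown for Pdgfra, Pdgfa and Rgs5, 3 members whose levels differ between cultured and uncultured stalk below, as the 250 bases before the annotated gene start (RefSeq, build GRCm38.p6), written 5′ to 3′ on the gene's own strand. Pdgfa has 2 annotated starts. The capitals mark motif matches.
Pdgfra, chr5:75152001-75152250, plus strand: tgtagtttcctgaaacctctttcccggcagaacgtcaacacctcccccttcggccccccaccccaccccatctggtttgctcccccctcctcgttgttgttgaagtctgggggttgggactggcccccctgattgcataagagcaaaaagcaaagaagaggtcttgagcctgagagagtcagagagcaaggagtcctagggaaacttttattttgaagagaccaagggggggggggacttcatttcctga
Pdgfa, chr5:138994282-138994531, minus strand: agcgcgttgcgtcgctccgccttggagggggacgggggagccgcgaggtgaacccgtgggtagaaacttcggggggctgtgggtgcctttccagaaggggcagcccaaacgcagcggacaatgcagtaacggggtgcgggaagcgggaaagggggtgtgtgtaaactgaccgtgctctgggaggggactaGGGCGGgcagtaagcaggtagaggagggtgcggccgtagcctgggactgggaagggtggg
Pdgfa, chr5:138994945-138995194, minus strand: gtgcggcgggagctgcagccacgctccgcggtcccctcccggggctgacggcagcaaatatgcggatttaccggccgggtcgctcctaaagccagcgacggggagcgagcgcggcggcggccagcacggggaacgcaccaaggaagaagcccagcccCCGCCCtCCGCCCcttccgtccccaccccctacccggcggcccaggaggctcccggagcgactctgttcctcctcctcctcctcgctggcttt
Rgs5, chr1:169655251-169655500, plus strand: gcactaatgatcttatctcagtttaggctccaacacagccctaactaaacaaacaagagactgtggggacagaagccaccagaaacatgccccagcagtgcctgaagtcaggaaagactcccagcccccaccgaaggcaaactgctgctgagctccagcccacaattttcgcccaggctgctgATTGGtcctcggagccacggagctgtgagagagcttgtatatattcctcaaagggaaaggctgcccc
Both strands were searched for 4 motifs. One was TATAAA (the core of a TATA box). Another was CCAAT. The third was GGGCGG (a core known from factors such as Sp1). The last was the CArG box, the site of serum response factor. A CArG box can contain TATAAA or CCAAT, and a window could match several motifs. The Pdgfra window held none of the 4 motifs. The windows of Pdgfa held 1 GGGCGG (capitals in the first) and 2 GGGCGG, read on the other strand as CCGCCC (capitals in the second). Rgs5 held 1 CCAAT, on the other strand as ATTGG. Of 32851 promoter windows of this length, 12.4% held TATAAA, 33.8% CCAAT, 32.7% GGGCGG and 1.47% a CArG box. Of the other windows, that of Pdgfc held a CArG box 17 bases before the start, those of Cspg4 and Abcc9 held GGGCGG, and that of Kcnj8 held none. In all, 7 of the 9 genes matched the promoter table, with 8 windows, and Pdgfrb and Pdgfb did not. A match is a description of the letters, not a site shown to be used.

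The signals were scaled alike, to a trimmed mean of about 500 on each array, but the culture arrays had a higher median signal (149 to 299, against 76.5 to 99.8 without culture) and more 3' than 5' signal for Actb, which reports on RNA integrity and labelling (a ratio of 6.81 to 24.4 against 2.02 to 4.52). The ratio of 6.81 was that of Wnt1 replicate 2, with 21.2 to 24.4 on the other culture arrays. Replicates correlated at 0.974 and 0.975 without culture and at 0.825 and 0.834 in culture (Pearson, across genes). These measures and culture cannot be told apart here. Within both cultures the arrays also split by replicate. Replicate 1 had the higher median (299 in control culture and 296 with Wnt1, against 209 and 149 for replicate 2). It correlated less with the uncultured arrays (0.6935 to 0.7445, against 0.8445 to 0.8823). Replicate 2 of control culture and of Wnt1 culture correlated at 0.9115, above either pair of culture replicates. Replicate 1 of control culture and of Wnt1 culture correlated at 0.8172, below both of those pairs. Gaps between culture replicates below should be read beside this. Every change in culture below should be set against the median log2 fold change of all genes, 0.44 for control culture minus stalk and 0.35 for Wnt1 culture minus stalk, which was 0.035 and 0.034 with quantile normalization and 0.028 and 0 with a signal floor (dim signals raised to the highest array median). Of 10 lung mesenchyme markers, among them Tbx4, Tbx5, Foxf1 and Tcf21, 9 had a mean above 298.6 in the uncultured arrays. That value, the highest array median, serves as the mark below which a signal counts as dim.

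Both receptors and Pdgfc stood clear of the dim mark, and most pericyte genes did not. Pdgfra (1421917_at), Pdgfrb (1436970_a_at), both probe sets of Pdgfc, and Rgs5 (1417466_at) were above that mark on all 8 arrays. Kcnj8 lay near it. No signal of Pdgfb exceeded it on an uncultured array, nor did any of Cspg4. The mark is the median of a culture array, though, and the uncultured medians were 76.5 to 99.8. Above their own array's median on every uncultured array were Pdgfb 1450414_at (178 to 242), Cspg4 1423341_at (119 to 168) and Kcnj8. The other probe sets of Pdgfb and Cspg4 were not. Abcc9 was at 9.82 to 17.2 on the uncultured arrays (1435751_at), far below each array's median. Among Pdgfrb and the 4 pericyte genes, Pdgfrb and Rgs5 were thus the bright ones in uncultured mesenchyme. In bulk tissue, fewer cells of a type and less RNA per cell cannot be told apart.

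**Figure D1:**
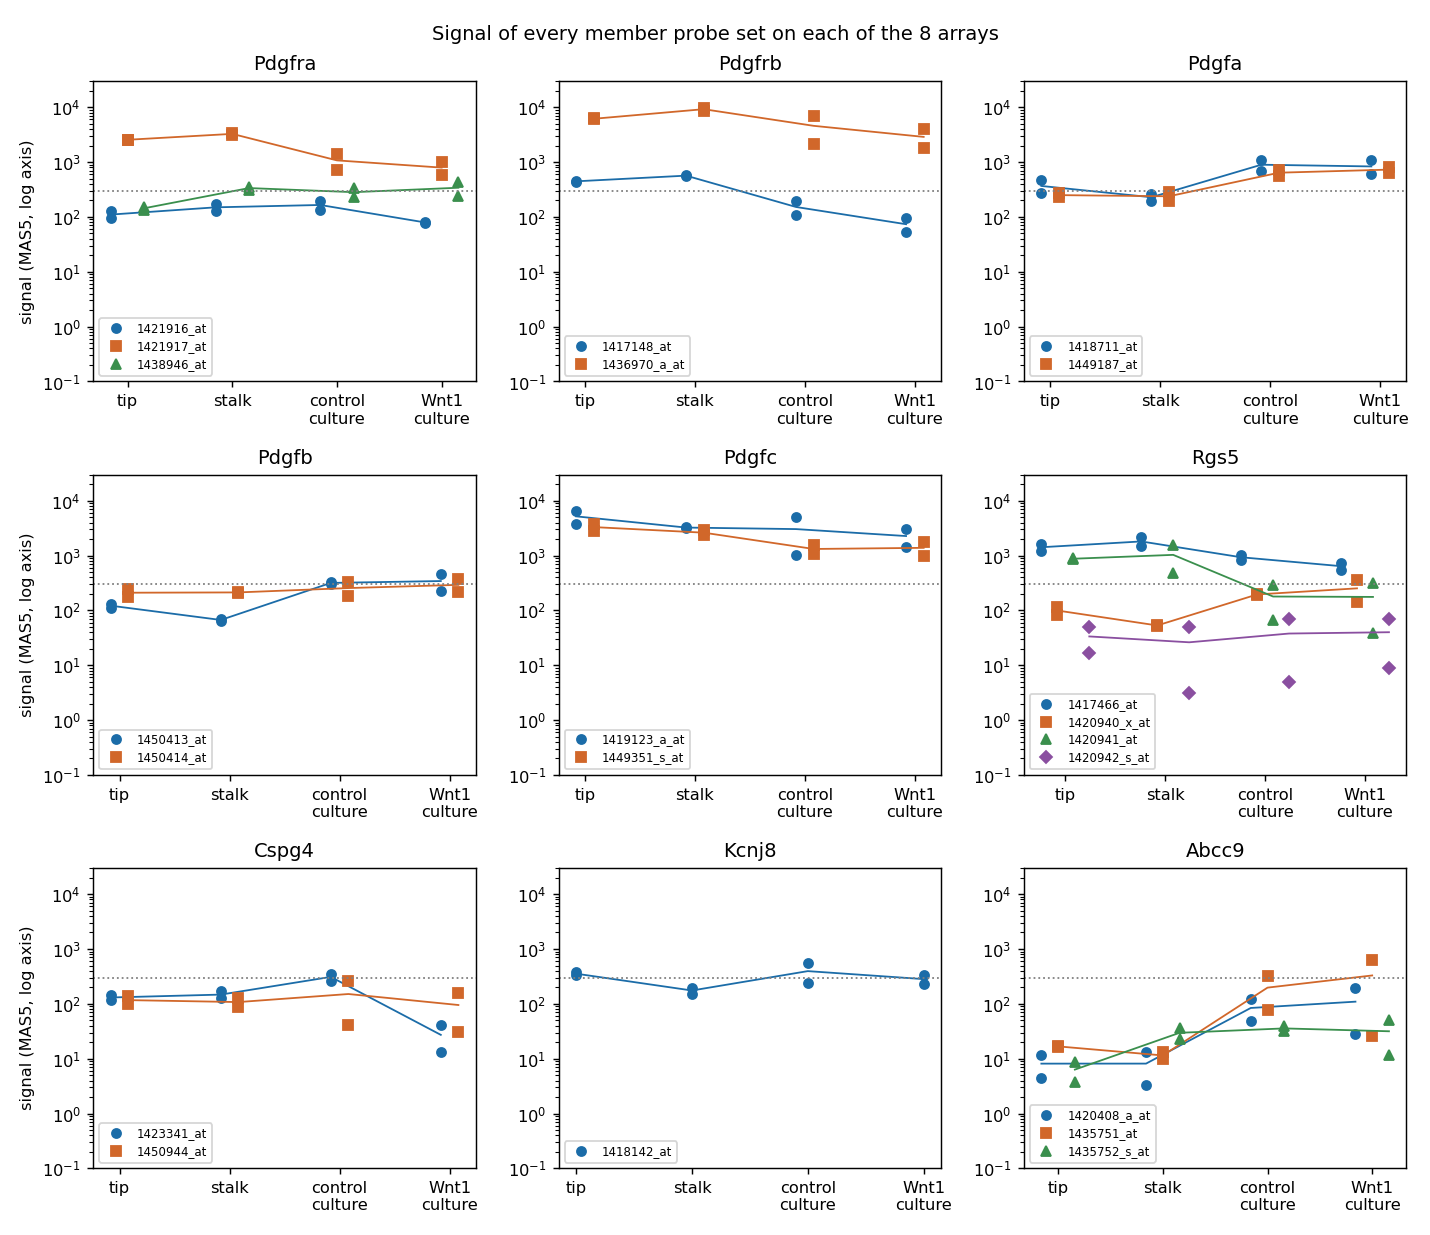
Signal of all 21 member probe sets on each of the 8 arrays (log axis), by group, with symbols for probe sets and lines joining group means. The dotted line is the highest array median, 298.6. Pdgfra 1421917_at runs from 2531 or more on the uncultured arrays to 1427 or less in culture, while Pdgfa runs the other way.

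Tip against stalk asks whether the members are divided along the branch. None of the 9 genes and none of the 19 probe sets passed the test (limma, adjusted p = 1 for each), where the background was 0% of 16112 genes. At an unadjusted p under 0.05 there were 0 members and 91 genes (0.565%). For Pdgfra, the tip arrays were at 2531 and 2566 and the stalk arrays at 3139 and 3392. Tip was thus below stalk on every array, by -0.35 ± 0.38 (log2 fold change ± SE), with a 95% interval from -1.18 to 0.48. Pdgfrb was at 6282 and 6019.7 in tip and at 9816 and 8589 in stalk. Its arrays again did not overlap, and the difference was -0.58 ± 0.51. The SEs, intervals and p-values of this comparison rest on a spread pooled over all 4 groups, and culture replicates were less alike. They therefore do not measure the spread of the tip and stalk arrays alone. With only those arrays fitted, 0 genes and 0 members passed (limma).

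Pdgfa and Pdgfc differed from both receptors in sign without passing the test. Pdgfa was at 465 and 268 in tip and at 259 and 198 in stalk, a difference of 0.56 ± 0.44. Its other probe set, 1449187_at, overlapped, at 272 and 227 in tip and 195 and 281 in stalk (0.07 ± 0.43). Pdgfc was at 6533 and 3823 in tip and at 3191 and 3279 in stalk, a difference of 0.62 ± 0.60. Its second probe set, 1449351_s_at, overlapped between tip and stalk (0.33 ± 0.38). Pdgfb (1450414_at) overlapped between tip and stalk, at -0.03 ± 0.49. Its other probe set, 1450413_at, did not, at 112 and 131 in tip and 62.8 and 70.9 in stalk (0.58 ± 0.54). Kcnj8, a pore subunit of the KATP channel, the potassium channel closed by ATP, had the highest log2 fold change of the members, at 375 and 335 in tip against 153 and 197 in stalk. This was 0.87 ± 0.48, above those of 98.7% of genes, with an interval from -0.18 to 1.91. Of the 9 genes, 4 were higher on both tip arrays than on both stalk arrays, as were 18.2% of all genes, and 2 were lower on both, as were 16.2%. The second probe set of Pdgfra, 1438946_at, was at 133 and 155 in tip and at 357 and 314 in stalk (-1.01 ± 0.49, adjusted p = 1), a wider gap than that of the brighter one.

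Markers of other cells leaned between the 2 tissues. The 13 tested endothelial genes all had a negative difference (median -0.49), the smooth muscle list had a median of -0.82 and the mesothelium list one of 0.55, against 0.01 for all genes. The macrophage list had a median of -0.64, with 10 of 11 genes below 0, and the megakaryocyte and platelet list one of -0.48, with 4 of 4 below 0. No gene of these lists passed (limma), with 1 endothelial, 3 smooth muscle, 2 mesothelial, 0 macrophage and 0 megakaryocyte and platelet genes at an unadjusted p under 0.05. The summed endothelial signal was 8719 and 12190 in tip and 13971 and 16759 in stalk. The smooth muscle sum was 3002 and 8158.5 in tip and 7561 and 10343 in stalk. The macrophage sum was 1662 and 5245 against 4592 and 5098. Both of these overlapped, with tip replicate 1 the low array. The mesothelium sum (8087 and 4966 against 3785 and 3650) and the megakaryocyte and platelet sum (3751 and 4454 against 4908 and 5617) did not overlap. The part of the endothelial difference in the lower Pdgfrb signal of tip was not tested.

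**Figure D2:**
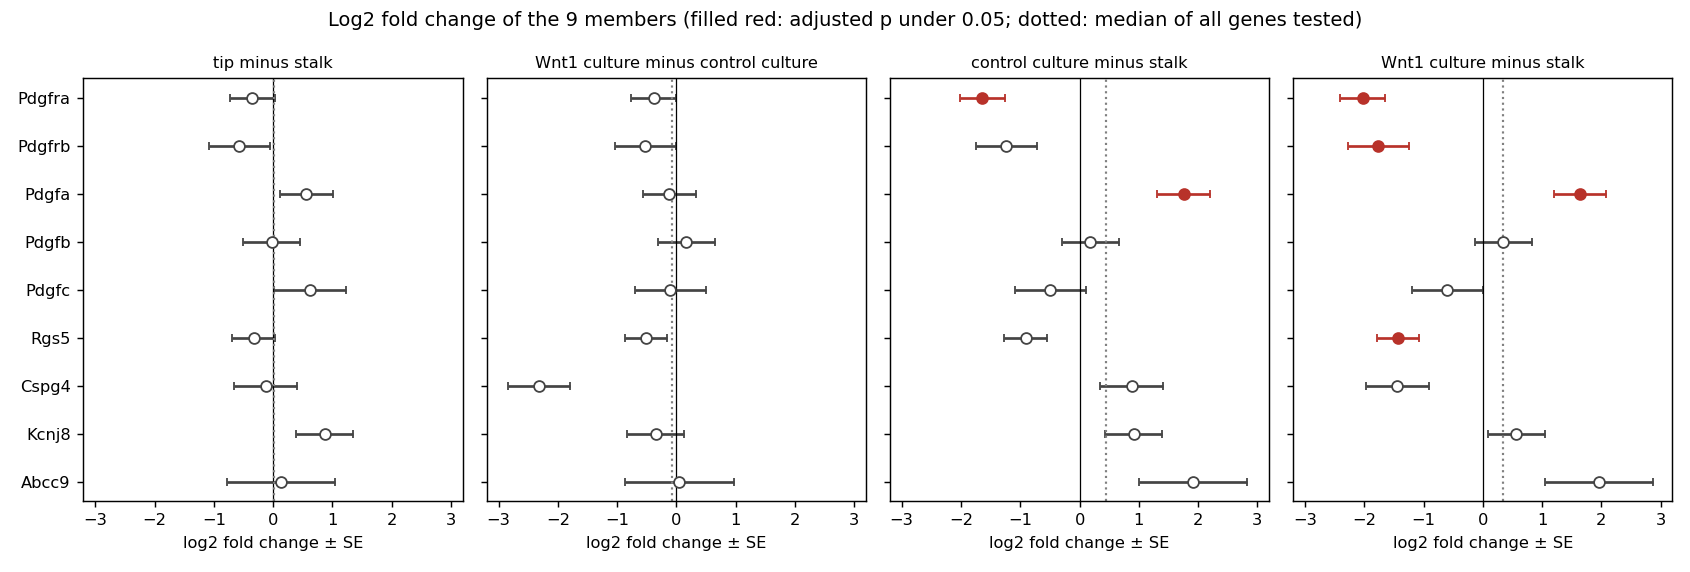
Log2 fold change ± SE of the 9 genes in each of the 4 comparisons, with filled red points past an adjusted p of 0.05 and the dotted line at the median of all genes. No member is filled for tip minus stalk or for Wnt1 minus control culture, and Pdgfra and Pdgfa are filled on opposite sides for both culture comparisons with stalk.

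Stalk in culture without Wnt1, set against uncultured stalk, shows how 12 h on plastic went with these genes. One receptor gene fell and 1 ligand gene rose, out of 9. Among all genes, 9.26% fell and 17.1% rose (26.4% in either direction, limma). A count of 1 in 9 in each direction is near those shares. The culture arrays did not overlap with the stalk arrays for 4 genes that were higher (46.1% of all genes) and 3 that were lower (25.4%). Abcc9, among the 4, passed the filter on dim signal through culture arrays alone. The comparisons of control and of Wnt1 culture with stalk share the stalk arrays, so their values are given side by side and not as separate support.

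Pdgfra was the gene that fell. Its signal was 3139 and 3392 in stalk, 719 and 1427 in control culture, and 994 and 589.6 with Wnt1. No culture array reached an uncultured one. The log2 fold change from stalk was -1.64 ± 0.38 in control culture (3.12-fold lower, adjusted p = 0.015) and -2.03 ± 0.38 with Wnt1 (4.08-fold lower, adjusted p = 0.00962). The other 2 probe sets of Pdgfra did not pass. Of these, 1438946_at was at 357 and 314 in stalk, 332 and 233 in control culture, and 439 and 242 with Wnt1, above the dim mark on 4 of 8 arrays, and changed by -0.23 ± 0.49 and -0.03 ± 0.49. The other, 1421916_at, was dim on all 8 and changed by 0.11 ± 0.57 and -0.64 ± 0.57. The control culture call was lost without stalk replicate 1 (adjusted p = 0.0883), stalk replicate 2 (0.127) or control replicate 1 (0.08), and with quantile normalization (0.0668), a signal floor (0.0516) or the mean of the 3 probe sets (-0.59, adjusted p = 0.18). The Wnt1 culture call was lost without either stalk array (0.0829 and 0.109), with quantile normalization (0.0574) and with that mean (-0.90, adjusted p = 0.076).

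Pdgfrb was lower in culture and passed with Wnt1. Its brighter probe set was at 9816 and 8589 in stalk, 2105 and 7046 in control culture, and 1804 and 3951 with Wnt1. Replicates of each culture lay far apart, replicate 1 being the lower in both, yet all 4 culture arrays were below both stalk arrays. The change was -1.24 ± 0.51 in control culture (adjusted p = 0.0863) and -1.76 ± 0.51 with Wnt1 (3.40-fold lower, adjusted p = 0.0385). The dimmer probe set, 1417148_at, was at 584 and 547 in stalk, at 197 and 106 in control culture, and at 94.2 and 53.0 with Wnt1. Here the replicates were closer, and both changes passed over all probe sets, at -1.68 ± 0.50 (adjusted p = 0.0315) and -2.39 ± 0.50 (adjusted p = 0.0148). Without control replicate 2, the high one, the brighter probe set changed by -2.10 (adjusted p = 0.00959), and without control replicate 1 by -0.38 (adjusted p = 0.582). The control culture change of the gene also passed with the mean of its probe sets (-1.46, adjusted p = 0.0108). The gene's Wnt1 call was lost without tip replicate 1 (0.0639), tip replicate 2 (0.0646), stalk replicate 1 (0.178), stalk replicate 2 (0.181) or Wnt1 replicate 1 (-1.21, adjusted p = 0.213), and with a signal floor (0.143) or no intensity trend (0.0719). The dimmer probe set lost its Wnt1 call without either stalk array (0.143 and 0.165), and its control call without any 1 tip, stalk or control array (0.0696 to 0.212). A signal floor ended both of its calls (-0.92 in each, adjusted p = 0.092 and 0.124).

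Pdgfa, which encodes the A chain, rose. It was at 259 and 198 in stalk, 1100.2 and 689 in control culture, and 1069 and 595 with Wnt1. Every culture array was above both stalk arrays and both tip arrays. The change was 1.76 ± 0.44 in control culture (3.38-fold, adjusted p = 0.0186) and 1.64 ± 0.44 with Wnt1 (3.11-fold, adjusted p = 0.0311). Its other probe set, 1449187_at, went from 195 and 281 to 551 and 728, and to 641 and 816 with Wnt1. Those changes, 1.28 ± 0.43 and 1.46 ± 0.43, passed as well (adjusted p = 0.0436 and 0.0428 over all probe sets). The gene's control culture call was lost without stalk replicate 1 (0.0896), stalk replicate 2 (0.155) or control replicate 1 (0.102), with quantile normalization (0.0647) and with a signal floor (0.0753). Its Wnt1 call was lost without tip replicate 1 (0.0554), tip replicate 2 (0.0539), stalk replicate 1 (0.132), stalk replicate 2 (0.219) or Wnt1 replicate 1 (0.135), with quantile normalization (0.0874) and with a signal floor (0.111). The second probe set lost its control call without any 1 tip, stalk or control array (0.0812 to 0.249), and its Wnt1 call without any 1 tip or stalk array or Wnt1 replicate 1 (0.0815 to 0.252). Both also ended with quantile normalization (0.28 and 0.174), a signal floor (0.127 and 0.124), a pseudocount at the 50th percentile (0.0511 and 0.0558), no filter (0.0503 and 0.0525) or no intensity trend (0.0602 and 0.0616), and the Wnt1 call in a fit on those 2 groups (0.0616).

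The probe sets of Pdgfb, the B chain, disagreed. One, 1450413_at, went from 62.8 and 70.9 in stalk to 328 and 306 in control culture and to 459 and 226 with Wnt1. Its change of 1.70 ± 0.54 in control culture passed (adjusted p = 0.0388), and that of 1.73 ± 0.54 with Wnt1 did not (adjusted p = 0.0524). The other, 1450414_at, overlapped between culture and stalk, at 216 and 209 in stalk, 325 and 185 in control culture, and 369 and 215 with Wnt1. Its change was 0.18 ± 0.49 (adjusted p = 0.79) and 0.35 ± 0.49 (adjusted p = 0.61), and it turned to -0.70 and -0.27 with quantile normalization. For 1450413_at, the control culture change was 0.54 (adjusted p = 0.486) with quantile normalization and 0.08 with a signal floor, and the call was lost without any 1 tip, stalk or control array (0.0581 to 0.212). With Wnt1 the change of 1450413_at was 2.18 without Wnt1 replicate 2, and leaving out 1 array took it as low as 1.28. Over all 18 alternatives it ran from 0.31 to 2.255, and it passed under 6 of them.

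Pdgfc did not pass in either culture. It was at 3191 and 3279 in stalk, 1018 and 5048 in control culture, and 1457 and 3074 with Wnt1. The control culture arrays lay on both sides of stalk, and the change was -0.50 ± 0.60 there (adjusted p = 0.535) and -0.60 ± 0.60 with Wnt1 (adjusted p = 0.474). Leaving out control replicate 2 gave -1.63 (adjusted p = 0.0253), and leaving out control replicate 1 gave 0.64. The second probe set, 1449351_s_at, was lower on every culture array than on the stalk arrays, by -0.98 ± 0.38 and -0.95 ± 0.38 (adjusted p = 0.0698 and 0.0979).

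Among the pericyte genes, Rgs5, a regulator that shortens G protein signals, was the one past the test. It was at 2151 and 1462 in stalk, 817 and 1042 in control culture, and 745 and 535 with Wnt1. No culture array reached a stalk array. The change was -0.91 ± 0.36 in control culture (adjusted p = 0.0732) and -1.43 ± 0.36 with Wnt1 (2.69-fold lower, adjusted p = 0.0242). A second probe set, 1420941_at, went from 1582 and 475 in stalk to 291 and 67.3 and to 313 and 38.9, which passed in both (-2.25 ± 0.71 and -2.41 ± 0.71, adjusted p = 0.0378 and 0.0447). Another, 1420940_x_at, went the other way, from 54.1 and 52.1 in stalk to 199 and 191 and to 359.9 and 144, and did not pass (1.30 ± 0.59 and 1.50 ± 0.59, adjusted p = 0.112 and 0.0949). Its suffix marks probes that may bind other transcripts, and it was dim on 7 of 8 arrays. The Rgs5 call with Wnt1 was lost without tip replicate 1 (0.0503), tip replicate 2 (0.0505), stalk replicate 1 (0.197) or stalk replicate 2 (0.127), with quantile normalization (0.0997), a signal floor (0.0588) or the mean of its probe sets (-0.78, adjusted p = 0.216), while the control culture change passed without Wnt1 replicate 1 (0.0454) or 2 (0.0443). For 1420941_at, the control call was lost without any 1 tip, stalk or control array (0.0537 to 0.278), and the Wnt1 call without any 1 tip or stalk array or Wnt1 replicate 2 (0.0648 to 0.293). Both also ended with a signal floor (0.176 and 0.238) or no intensity trend (0.0682 and 0.076), and the Wnt1 call with quantile normalization (0.058), a pseudocount at the 50th percentile (0.0604) or no filter (0.0583).

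Kcnj8 and Abcc9, neighbouring genes that encode the pore and the regulatory subunit of one KATP channel, did not pass. Kcnj8 was at 153 and 197 in stalk, 549.8 and 240.1 in control culture, and 334 and 231 with Wnt1. Its culture arrays were all above stalk, by 0.91 ± 0.48 and 0.56 ± 0.48 (adjusted p = 0.164 and 0.4), the second of which turned to -0.14 with quantile normalization. Abcc9 (1435751_at) was at 13.1 and 9.82 in stalk, 318 and 77.4 in control culture, and 633 and 25.6 with Wnt1. All 4 culture arrays were above stalk, but just 2 of them exceeded the dim mark, replicate 1 of each culture. This probe set passed the filter on dim signal through those 2 alone, so its place among the tested genes rests on culture. The change was 1.91 ± 0.91 and 1.96 ± 0.91 (adjusted p = 0.127 and 0.136). Leaving out control replicate 2 gave Kcnj8 a change of 1.44 in control culture (adjusted p = 0.0468), and leaving out control replicate 1 gave 0.38 (adjusted p = 0.632). Abcc9 passed in control culture without Wnt1 replicate 1 (0.0309) or 2 (0.0277), and with Wnt1 without Wnt1 replicate 2 (3.60, adjusted p = 0.00991). Its changes were 1.12 without control replicate 1 and 0.33 without Wnt1 replicate 1 (adjusted p = 0.48 and 0.794), each the brighter array of its pair. With a signal floor its changes were 0.045 and 0.54.

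**Figure D3:**
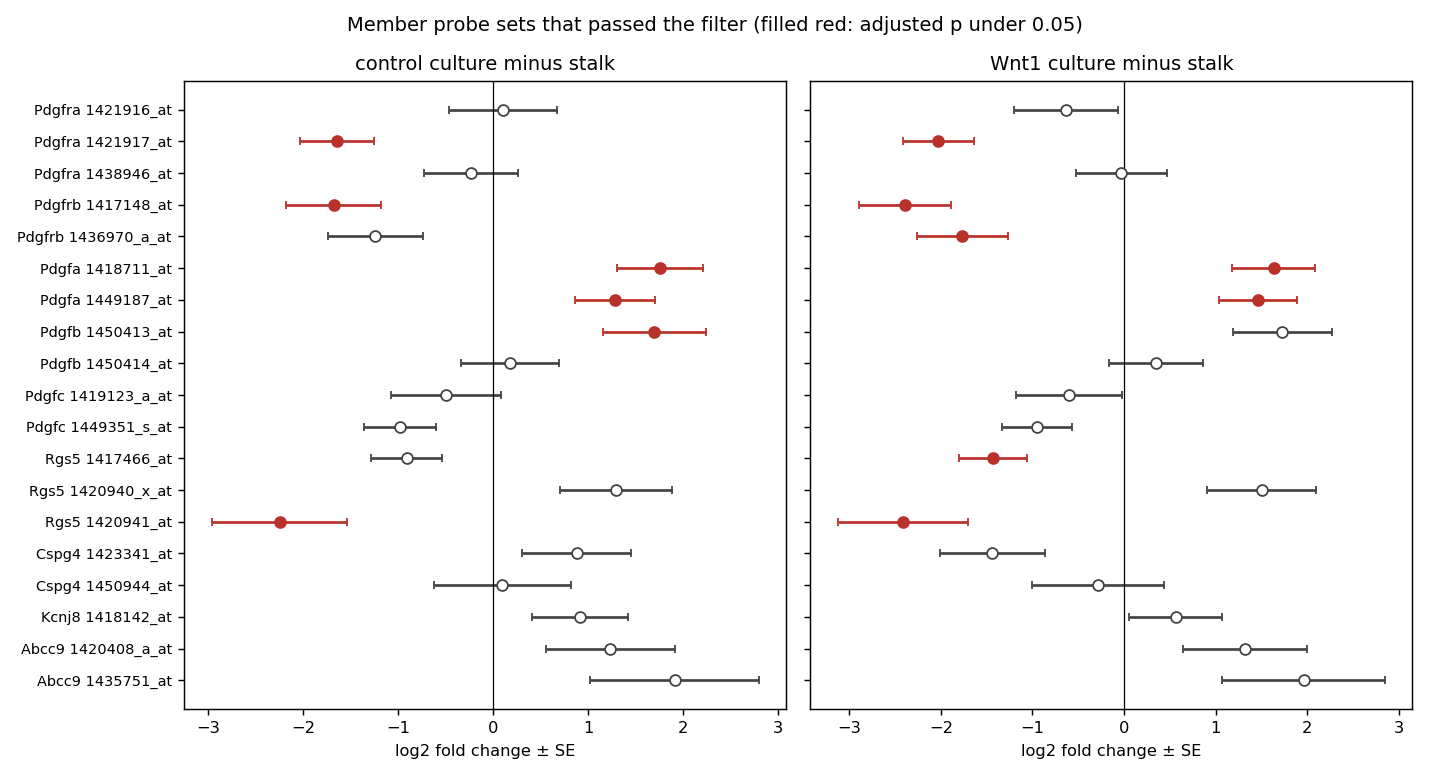
Log2 fold change ± SE of the 19 probe sets that passed the filter, control culture minus stalk and Wnt1 culture minus stalk, with filled red points past an adjusted p of 0.05 over all probe sets. In control culture 3 fell and 3 rose, and with Wnt1 5 fell and 2 rose, and probe sets of Pdgfra, Pdgfb and Rgs5 differ within the gene.

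Counted by probe set, 3 of 19 fell and 3 rose in control culture, against 6.42% and 16.8% of all probe sets. With Wnt1, 5 of 19 fell and 2 rose, against 4.33% and 7.07%. By gene, 3 of 9 fell and 1 rose with Wnt1, where 6.88% of genes fell and 9.33% rose (16.2% in either direction). The arrays did not overlap with stalk for 5 genes that were lower with Wnt1 (25.5% of all genes) and 3 that were higher (41.5%). Abcc9, again among those higher, passed the filter through culture arrays alone. The probe set counts weigh genes by how many probe sets they have, and 4 of the 5 that fell with Wnt1 belong to Pdgfrb and Rgs5.

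Wnt1 against control culture asks what the added protein did. No member gene or probe set passed (limma), nor did any of the 16112 genes (0%), the lowest adjusted p being 0.113. At an unadjusted p under 0.05 there were 1 member and 1297 genes (8.05%). That member was Cspg4, at 265 and 355 in control culture and at 41.0 and 13.4 with Wnt1. Its groups did not overlap, and the change was -2.32 ± 0.53 (adjusted p = 0.553, 95% interval from -3.47 to -1.18). Just 0.0993% of genes had a log2 fold change as low. All of its signals were dim except 1, 355, and with a signal floor the change was -0.12. The second Cspg4 probe set, 1450944_at, overlapped, at 40.9 and 261 in control culture and 159 and 31.0 with Wnt1 (-0.38 ± 0.72, adjusted p = 0.962). Against uncultured stalk, at 168 and 127, Cspg4 changed by 0.88 ± 0.53 in control culture and -1.44 ± 0.53 with Wnt1 (adjusted p = 0.215 and 0.0737). The latter passed with a pseudocount of 1 (0.0475), with quantile normalization (0.0449) and without the intensity trend (0.0458), and the former turned to -0.10 with quantile normalization.

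For the other 8 genes the Wnt1 effect lay between -0.52 and 0.17, with adjusted p from 0.768 to 0.996. Pdgfra had an effect of -0.39 ± 0.38 (95% interval from -1.22 to 0.45), Pdgfrb of -0.52 ± 0.51 (from -1.64 to 0.59) and Rgs5 of -0.52 ± 0.36 (from -1.29 to 0.26). These intervals include a 2-fold decrease for each of the 3. The arrays of the media did not overlap for 2 genes, Cspg4 and Rgs5, both lower with Wnt1 (15.9% of all genes), and by 0 that were higher (10.1%). Pdgfa had an effect of -0.12 ± 0.44 (from -1.08 to 0.84). The sign turned for 7 of the 9 genes, all but Rgs5 and Cspg4, when 1 culture array was left out. That Pdgfrb and Rgs5 passed against stalk with Wnt1 and not in control culture does not show a difference between the media.

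The levels can be ordered within a gene. For Pdgfra the order of group means was Wnt1 culture (792 ± 286, SD, n = 2), control culture (1073 ± 501), tip (2549 ± 25.2) and stalk (3265 ± 179). Neighbours overlapped for the 2 cultures and not otherwise. For Pdgfrb it was the same order, from 2877 ± 1518 through 4575 ± 3493 and 6151 ± 185 to 9203 ± 867, with overlap between the cultures and between control culture and tip. For Rgs5 it was again Wnt1 culture (639.8), control culture (929.8), tip (1416) and stalk (1807), where tip and stalk overlapped. For Pdgfa the order ran from stalk (228 ± 42.9) and tip (367 ± 139) to Wnt1 culture (832 ± 336) and control culture (895 ± 291), with overlap between the cultures. In its other probe set, 1449187_at, stalk and tip overlapped too, and Wnt1 culture had the highest mean.

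Genes whose log2 signal followed a member's most closely over the 8 arrays were sought among 8628 bright genes. Pdgfra was most like Zmym4 (Pearson r = 0.995), Rpgrip1 (0.992) and Aff3 (0.992). Pdgfrb was most like Bach1 (0.990), Clip1 (0.984) and Foxn3 (0.983). Rgs5 was most like Lpcat1 (0.979), Zfp354c (0.977) and Aplnr (0.975), the last of them the apelin receptor of endothelium. Pdgfa was most like Tmc8 (0.991), Nfkbil1 (0.990) and Mfsd12 (0.988). For Pdgfc, Coa5 stood first (0.984), and for Kcnj8, Pex10 (0.873). These values describe 8 arrays that share the split between culture and no culture.

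The rest of the Pdgf pathway was read from a list of 22 other genes, all of them tested. In control culture 3 rose and 6 fell, with a median of -0.62, and with Wnt1 0 rose and 7 fell, with a median of -0.63. Rasa1, a Ras GTPase-activating protein that binds the activated Pdgfrb receptor, went from 2255 and 1849 in stalk to 556 and 433 in control culture and 673 and 545 with Wnt1 (-1.96 ± 0.33 and -1.68 ± 0.33, adjusted p = 0.0054 and 0.0109). The kinase Fyn changed by -1.50 in control culture (adjusted p = 0.0154). Plat, the tissue plasminogen activator, which cleaves Pdgfc into its active form, changed by -1.59 and -1.54 (adjusted p = 0.0164 and 0.0238). Furin, a protease that processes the Pdgfa and Pdgfb precursors, went from 384 and 468 in stalk to 974 and 1917 in control culture (1.59 ± 0.41, adjusted p = 0.0191). The ubiquitin ligase Cbl changed by -1.24 and -1.37 (adjusted p = 0.0254 and 0.0248), and the adaptor Crkl by -1.33 and -1.39 (adjusted p = 0.0225 and 0.0262).

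The Plat change was 0.09 and -0.14 with the mean of its probe sets, and that of Crkl -0.26 and 0.26. All of these calls were lost without either stalk array (adjusted p from 0.0657 to 0.199), as were those of Furin without control replicate 2 (0.0596), Fyn, Plat, Cbl and Crkl without control replicate 1 (0.0559, 0.0861, 0.0663 and 0.114), Plat, Cbl and Crkl without Wnt1 replicate 1 (0.0951, 0.0895 and 0.0914), and those of Cbl in both cultures and Crkl with Wnt1 without a tip array (0.0549 to 0.0564). In tip minus stalk and in Wnt1 minus control culture 0 of 22 passed (limma), with 0 and 2 at an unadjusted p under 0.05.

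Other pericyte and mural markers did not move as a block. Of 14 listed, 12 were tested. In control culture 2 rose and 2 fell, with a median of 0.70, and with Wnt1 1 rose and 1 fell, with a median of 0.63. Gucy1a1, a subunit of the nitric oxide receptor, passed in both cultures under every alternative, and went from 2443 and 2275 in stalk to 232 and 319 and to 267 and 438 (-2.92 ± 0.35 and -2.63 ± 0.35, adjusted p = 0.00142 and 0.00196). Its partner Gucy1b1 fell by 2.52 in control culture (adjusted p = 0.0184). Des, the muscle intermediate filament desmin, went from 278 and 225 to 691 and 2144 and to 1752 and 2658 (2.11 ± 0.49 and 2.90 ± 0.49, adjusted p = 0.0143 and 0.00636). The fourth, Vtn (vitronectin), rose by 1.81 in control culture but stayed dim (adjusted p = 0.0457).

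Notch3, a receptor of mural cells, was at 1069 and 1350 in stalk, 1015 and 1465 in control culture, and 908 and 691 with Wnt1, and did not pass. Without stalk replicate 2, the calls of Des (0.122 and 0.0726), Gucy1b1 (0.161) and Vtn (0.209) were lost, and without stalk replicate 1 those of Des in control culture (0.0797), Gucy1b1 (0.0716) and Vtn (0.205). Gucy1b1 and Vtn were also lost without control replicate 1 (0.104 and 0.176), and Vtn without either tip array (0.0798 and 0.0747).

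Markers of other cells moved with culture as well. Of 13 endothelial genes 9 fell in each culture, with medians of -2.08 and -2.25, and their summed signal was 1945 to 4091 on the culture arrays against 8719 to 16759 without culture. Kdr, the Vegf receptor, changed by -1.99 and -2.55. Of 10 smooth muscle genes 5 rose in each (medians 2.06 and 1.87, summed signal 3002 to 10343 without culture and 112020 to 180340 in it), and of 11 macrophage genes 6 and 5 rose. Of 9 epithelial genes 2 and 1 rose (medians 1.28 and 0.94, summed signal 2456 to 3972 without culture and 4962 to 12997 in it). The sum of 12997 was that of Wnt1 replicate 2, with Krt8 at 4384 and Krt18 at 6905. The other culture sums were 4962 to 6455. Of 8 mesothelial genes 3 and 2 rose (medians 0.85 and 0.53). The epithelial marker Epcam changed by 2.32 and 2.21 (adjusted p = 0.00551 and 0.00799), which turned to -0.58 and -0.30 without _x_at and _s_at probe sets and was lost without either stalk array (0.0549 to 0.103). Of 10 lung mesenchyme markers, 6 and 5 fell, among them Tbx4 (-2.19 and -1.77), and 2 and 1 rose. The part of these shifts in the changes of Pdgfra, Pdgfrb, Rgs5 and Pdgfa was not tested. With quantile normalization 26 of the 49 list genes called in control culture stayed called, and with a signal floor 23. For the 39 called with Wnt1 these counts were 24 and 19. Of the 49 list genes called in control culture and 39 called with Wnt1, 7 and 14 stayed called without stalk replicate 1 and 6 and 6 without stalk replicate 2.

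**Figure D4:**
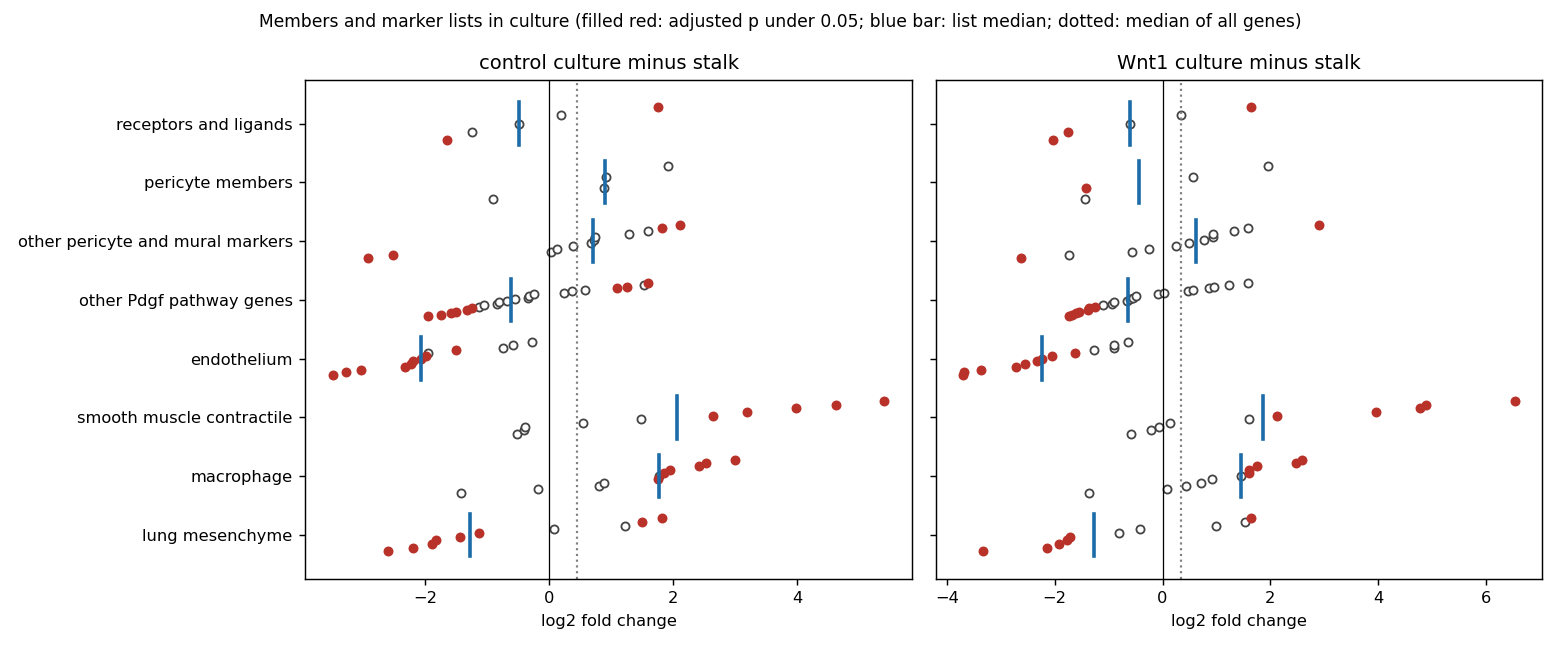
Log2 fold change of each gene in the members and marker lists, control culture minus stalk and Wnt1 culture minus stalk, with filled red points past an adjusted p of 0.05, a blue bar at each list's median and the dotted line at the median of all genes (0.44 and 0.35). Endothelial genes lie to the left (medians -2.08 and -2.25) and smooth muscle genes to the right (2.06 and 1.87), while receptors and ligands spread to both sides.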

How the data were processed

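RNA was hybridised to Affymetrix arrays. Each probe set has 1 deposited intensity per array, linear and scaled. The submitters' processing notes name Affymetrix Expression Console and the MAS5 method, with version and genome build not given in the sources used here. Of 45101 probe sets, 34945 have 1 gene symbol in the platform annotation. The others, 64 controls among them, entered no test by gene. Values were taken as log2(value + 44.5), the 25th percentile, which shrinks the fold changes of dim genes. This does not correct for the higher median signal of the culture arrays, so rises of dim genes in culture need not be understated. Probe sets above 96.6 (the 40th percentile) on at least 2 arrays were kept, and the one with the highest mean stood for its gene. One fit of 4 group means over the 8 arrays used limma 3.58.1 and R 4.3.3 (lmFit, eBayes with trend, two-sided, Benjamini-Hochberg over 16112 genes or 37394 probe sets, threshold 0.05). Figures used matplotlib 3.10.9 in Python 3.11.15. The number of arrays limits the precision.

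No label ties replicates to separate litters, so p-values cover just the differences between these arrays, possibly technical ones. The members and gene lists were chosen with earlier results of these data known. The rule for named genes takes all members and probe sets, up to 4 genes a list past the threshold by smallest p, and the 3 genes most like each bright member. Notch3, Abcc8, Krt8 and Krt18 fall outside it and were named after their values were seen. The alternatives changed the pseudocount, filter, normalization, signal floor, intensity trend, probe set rule, arrays fitted and replicate block.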

Additional observations from a re-analysis of the deposited data

How the results depend on the processing

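Directions held under every alternative for Pdgfra, Pdgfrb, Pdgfa and Rgs5 in culture minus stalk, and the calls did not. With quantile normalization and with a signal floor, genes past the threshold numbered 1250 and 1080 in control culture minus stalk (4247 as reported) and 653 and 559 in Wnt1 culture minus stalk (2613), members 0 and 0 (2) and 2 and 1 (4), and member probe sets 2 and 0 (6) and 1 and 0 (7). For Wnt1 minus stalk, averaging probe sets within a gene left 2 members, and the member probe sets numbered 3 with the pseudocount at the 50th percentile, 4 with no filter and 2 with no intensity trend. Wnt1 minus control culture gave 1 gene with a pseudocount of 1, with the mean of probe sets and with the replicate block. Leaving out 1 array gave 61 to 6361, 65 to 5568 and 0 to 61 genes in control minus stalk, Wnt1 minus stalk and Wnt1 minus control, 0 to 5 members in each of the first pair, and 0 to 10 and 0 to 11 member probe sets. The fewest genes came without stalk replicate 2 (61 and 65), and that fit has fewer samples.

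The replicate numbers were not taken to pair the samples, since deviations of same-numbered arrays correlated at -0.08 (tip and stalk) to 0.30 (the cultures). With the number as a block, 3952 genes passed in Wnt1 minus stalk and 5419 in control minus stalk, where Pdgfrb passed too (adjusted p = 0.0388).

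Signs turned with the mean of probe sets for Pdgfb (0.27) and Rgs5 (0.073) in tip minus stalk, Pdgfa in Wnt1 minus control (0.030), Plat (0.089) and Tcf21 (0.12) in control minus stalk and Crkl (0.26) in Wnt1 minus stalk. They turned with quantile normalization for Pdgfb (-0.70) and Cspg4 (-0.10) in control minus stalk and Pdgfb (-0.27) and Kcnj8 (-0.14) in Wnt1 minus stalk, with a pseudocount of 1 for Abcc9 in Wnt1 minus control (-0.28), and for Epcam without _x_at and _s_at probe sets (-0.58 and -0.30). Leaving out 1 array turned Pdgfb (-0.21 to 0.16) and Cspg4 (-0.28 to 0.028) in tip minus stalk and Pdgfb (-0.16 to 0.52) and Pdgfc (-1.63 to 0.64) in control minus stalk. In Wnt1 minus control it turned Pdgfra (-0.86 to 0.088), Pdgfrb (-1.38 to 0.34), Pdgfa (-0.52 to 0.28), Pdgfb (-0.17 to 0.51), Pdgfc (-1.23 to 1.03), Kcnj8 (-0.88 to 0.18) and Abcc9 (-1.58 to 1.69). Apart from fewer samples, the cause was not tested. Signals under the highest array median have no firm order.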

Other observations

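The other KATP channel pair was seen with Kcnj8 and Abcc9. Kcnj11, the second pore gene of this channel family, was at 349.9 and 198 in stalk, 1886 and 949 in control culture, and 1804 and 841 with Wnt1. It rose by 2.16 ± 0.48 and 2.05 ± 0.48 on the log2 scale (limma, adjusted p = 0.0124 and 0.0193). All 4 culture arrays were above both stalk arrays, and tip was at 160.3 and 152. Of 19 alternatives, 4 ended the Kcnj11 call in control culture and 5 that with Wnt1. Its control culture call was lost without stalk replicate 1 (0.0613), stalk replicate 2 (0.13) or control replicate 1 (0.0791), and its Wnt1 call without stalk replicate 1 (0.0854), stalk replicate 2 (0.182) or Wnt1 replicate 1 (0.103). Abcc8, the regulatory subunit usually paired with it, was at 42.7 and 53.9 in stalk, 262 and 404 in control culture, and 548 and 25.0 with Wnt1, and did not pass.

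Megakaryocytes and platelets, a further source of Pdgf chains, were followed through 4 tested genes. Ppbp, a platelet chemokine, changed by -2.67 in control culture and -2.88 with Wnt1 (adjusted p = 0.00584 and 0.00499), and the other 3 did not pass. The Ppbp call ended under 2 of 19 alternatives in each culture. The call was lost without stalk replicate 2 in both (0.0981 and 0.105) and without stalk replicate 1 in control culture (0.0541).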
